A study of Rattus norvegicus with 6 samples.

Results

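The subject is a set of 40 genes of the cell cycle and of proliferation, listed by name: marks of dividing cells, cyclin-dependent kinases (CDKs) and their cyclins, the DNA replication machinery, enzymes that make deoxynucleotides, mitotic regulators and CDK inhibitors. All probes whose single gene symbol in the platform annotation was one of these names were taken. Of the 40 genes, 35 were measured, out of 11709 genes of the whole array with a probe valid on every array. Ccne2, Ccnb2, Mcm3 and Tpx2 had no probe with that single symbol, and the 1 probe of Tyms carried a missing-value code on 6 of 6 arrays and was not tested. The cells were grown in culture from the brainstem of 2 inbred rat strains: SHR (spontaneously hypertensive), which inherits high blood pressure, and its normotensive relative WKY (Wistar Kyoto). Each strain had 3 single-colour CodeLink arrays, and each array held RNA of cells pooled from 3 dishes. The labels name no treatment, age, sex or time in culture. The design text calls the arrays of a strain biological replicates but gives no litter or culture day for the dishes, and the spread behind each p-value may be partly technical.

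Cells enter the cycle when D cyclins with Cdk4 and Cdk6, then E cyclins with Cdk2, inactivate the retinoblastoma proteins and release E2F factors, which switch on the genes of DNA replication. Later, the MuvB complex with B-Myb and FoxM1 switches on the genes of mitosis through promoter elements named CHR (cell cycle genes homology region). These elements often lie near CCAAT boxes that bind NF-Y. In resting cells the DREAM complex, which also contains MuvB, holds such genes silent. Inhibitors such as p21, p27 and p16 hold the kinases in check. In primary glial cultures of the newborn rodent brain, astrocytes, oligodendrocyte precursors and microglia can divide, while neurons do not.

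Signal levels are log2 of the submitters' quantile normalized intensity, with a median of 520 intensity units on each of the 6 arrays, and differences are SHR minus WKY. Before normalization the medians of the arrays lay between 461 and 607 units. With 3 arrays a strain, precision is limited throughout, and a bulk signal cannot tell fewer cells of a type from less RNA per cell. Of the measured markers of astrocytes, 8 of 10 were brighter than the median gene, as Gfap (13.66 to 14.21), but Sox9 and Slc1a2 were not (brighter than 32.9% and 8.75% of genes). Of those of microglia and macrophages, 12 of 15 were, as Aif1 (15.13 to 15.30), but Ptprc, Cx3cr1 and Trem2 were not (44.2%, 41.1% and 0.80%). Neuron markers were mixed, with 5 of 10 brighter than the median gene: Uchl1 and Stmn2 were bright (95.4% and 90.1%) and Snap25 and Nefh near the bottom of the scale (0.42% and 1.19%). Intensities of different probes are not comparable as transcript amounts, so levels are compared between arrays within a probe.

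Promoters of 4 of the genes are shown because these genes stand for the array patterns described next: Mki67 and Mcm5 were lowest on WKY 1, whereas Cdk1 and Cdc20 were brightest on SHR 1 and SHR 3. Each is the 250 bases before the RefSeq start of the gene, 5′ to 3′ on the strand of the gene, in build GRCr8. Capitals mark letters found in either orientation. The first is the CHR, searched as TTTGAA. The next is the box searched by the letters that give it its name, CCAAT. The last is the E2F site, searched in any of 4 forms that overlap one another (TTTCCCGC or TTTGGCGC or TTCCCGCC or TTGGCGCC).
Mki67, chr1:199952594-199952843, minus strand: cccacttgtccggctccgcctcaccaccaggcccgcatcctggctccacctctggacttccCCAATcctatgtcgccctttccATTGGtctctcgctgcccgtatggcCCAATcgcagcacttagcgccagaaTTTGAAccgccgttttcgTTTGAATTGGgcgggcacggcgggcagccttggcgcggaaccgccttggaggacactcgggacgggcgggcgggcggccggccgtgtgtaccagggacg
Mcm5, chr19:13488563-13488812, plus strand: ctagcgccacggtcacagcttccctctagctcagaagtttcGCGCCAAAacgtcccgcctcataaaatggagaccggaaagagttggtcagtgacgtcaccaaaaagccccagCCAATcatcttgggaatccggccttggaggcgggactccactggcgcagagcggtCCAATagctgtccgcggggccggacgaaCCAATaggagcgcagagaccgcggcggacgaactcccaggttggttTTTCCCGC
Cdk1, chr20:19265043-19265292, plus strand: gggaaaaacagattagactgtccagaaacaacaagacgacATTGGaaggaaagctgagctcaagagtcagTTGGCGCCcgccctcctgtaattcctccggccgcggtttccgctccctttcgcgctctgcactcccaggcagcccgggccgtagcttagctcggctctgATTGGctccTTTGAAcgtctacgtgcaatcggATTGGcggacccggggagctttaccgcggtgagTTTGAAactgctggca
Cdc20, chr5:137255800-137256049, minus strand: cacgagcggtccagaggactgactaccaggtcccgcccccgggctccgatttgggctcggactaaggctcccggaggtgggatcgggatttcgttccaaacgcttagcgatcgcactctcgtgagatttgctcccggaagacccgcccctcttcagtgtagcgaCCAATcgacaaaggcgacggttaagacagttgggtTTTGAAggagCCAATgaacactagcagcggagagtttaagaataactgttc
In Mki67 the second CHR match and the inverted CCAAT box beside it share 1 base. Of the 40 genes, 30 had an entry in the promoter table. A CCAAT box was present in 21 of these 30 (70.0%), against 34.0% of all 33469 promoters in the table, and one of the E2F forms in 6 (20.0%, against 2.76%). The CHR letters were found in 7 (23.3%, against 16.2%). The median GC content was 58.8% in the 30 promoters and 51.2% in all, and matches are letters in a window, not measured binding.

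None of the 35 genes passed an adjusted p of 0.05 between the strains in limma. The share of probes passing over the whole array was 0.0% of 33249, while 7.65% had an unadjusted p under 0.05. The members' differences ran from -0.60 to 0.65. None of the 35 reached 2-fold, against 193 of all 11709 genes, and 26 of 35 were smaller than 0.25, against 8111 of 11709. The median of the members was 0.07, against -0.00088 over all 11709 genes. By sign, 23 members stood higher and 12 lower in SHR, against 5833 and 5876 of all genes. Unadjusted p under 0.05 was found at 2 members higher in SHR (3.38% of all genes) and 1 lower (3.31%). All 3 SHR arrays lay above all 3 WKY arrays at 3 members (6.62% of all genes), namely Ccnd2, Pcna and Cdkn2a, and below them at 1 (7.3%), Cdkn1b. Among the 35 members the 4 counts are shares of 5.71%, 2.86%, 8.57% and 2.86%, each resting on 3 genes or fewer. The median of the members was 0.24 in the intensities before normalization between arrays, where the median of all probes was 0.12, and -0.0014 without WKY 1.

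**Figure D1:**
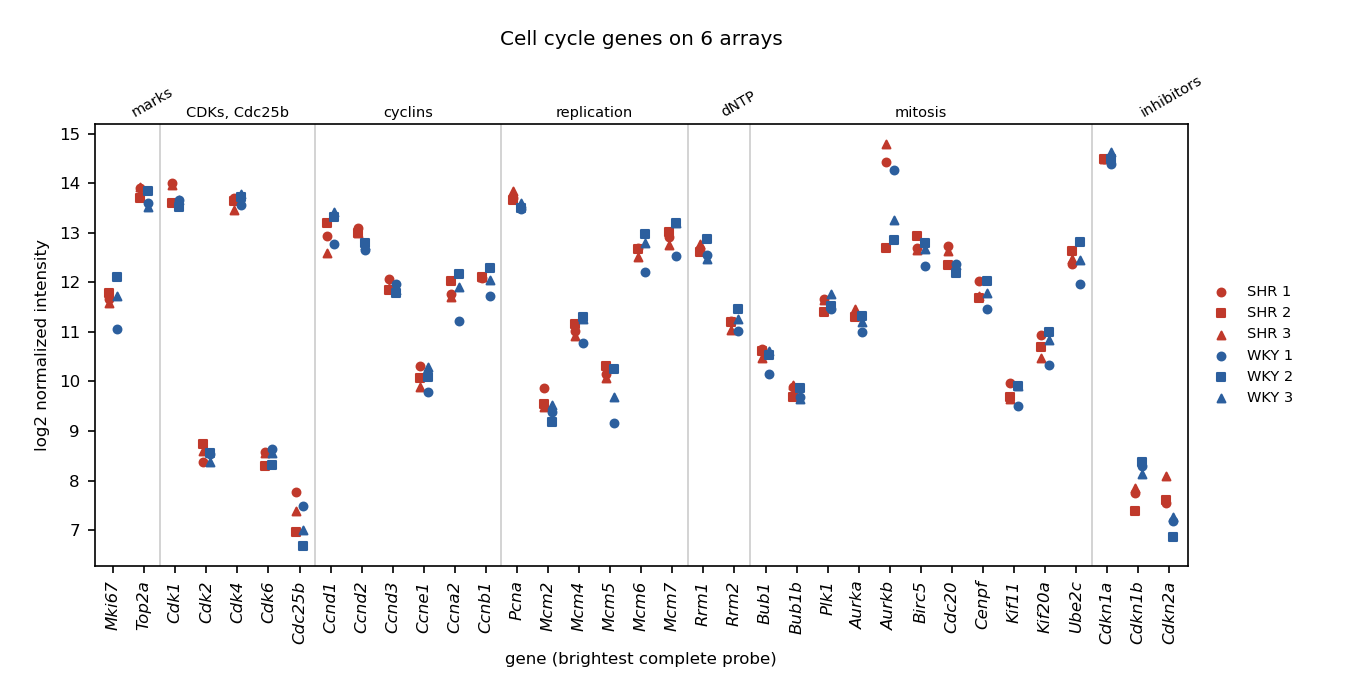
Log2 normalized intensity (vertical axis) of the 35 measured genes (horizontal axis, brightest complete probe, ordered by role), with 1 point per array and no averaging. SHR points (red) and WKY points (blue) overlap at most genes, Aurkb is the most scattered, and WKY 1 (blue circles) is the lowest point of Mki67, Ccna2 and Mcm5.

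**Figure D2:**
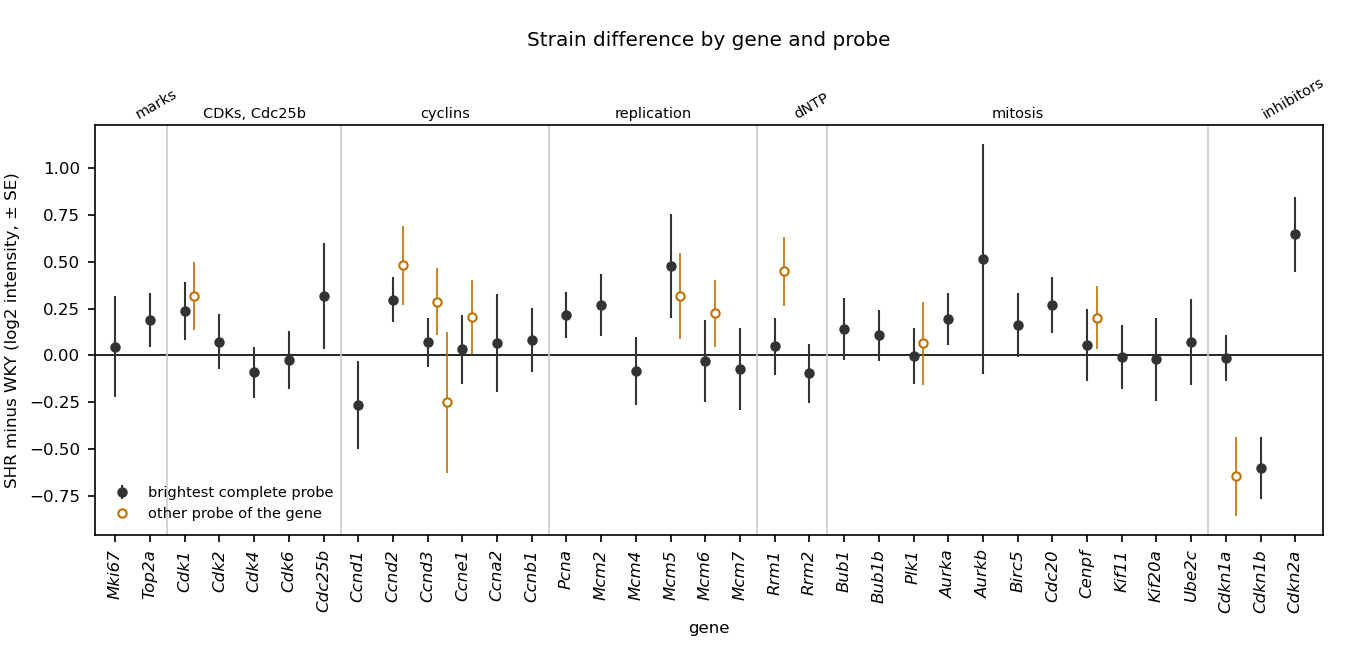
SHR minus WKY in log2 intensity (vertical axis, points with SE from limma, n = 3 arrays per strain) for each gene (horizontal axis), with filled points for the brightest complete probe and open points for other probes. Most lie within 0.25 of 0, and the points farthest from 0 are those of Aurkb, with a wide error, Cdkn1b, Cdkn2a and the dimmer probe of Cdkn1a.

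Both marks of dividing cells were bright in each strain. Mki67 encodes the Ki-67 protein, which coats chromosomes in mitosis and is absent from resting cells. Its log2 signal was 11.67, 11.80 and 11.58 on the SHR arrays and 11.07, 12.11 and 11.73 on the WKY arrays. The WKY arrays held both the lowest and the highest value, so the SHR values lay inside the WKY range. The difference was 0.05 ± 0.27 (SE), with a 95% interval from -0.61 to 0.70 and an adjusted p of 0.973 in limma, and it was -0.24 without WKY 1. Top2a, the topoisomerase that untangles replicated DNA, measured 13.91, 13.71 and 13.92 in SHR and 13.61, 13.85 and 13.53 in WKY. Its groups overlapped at SHR 2 and WKY 2, and the difference was 0.19 ± 0.14 (interval -0.16 to 0.54, adjusted p = 0.756 in limma).

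The kinases that drive the cycle differed little between the strains. Cdk1, the kinase of mitotic entry, had 2 probes with nearly the same array profile. The brighter gave 14.01, 13.60 and 13.96 in SHR and 13.67, 13.52 and 13.67 in WKY. The second gave 14.08, 13.54 and 14.07 against 13.63, 13.53 and 13.57. At both probes SHR 1 and SHR 3 stood above every other array while SHR 2 lay among the WKY values. The differences were 0.24 ± 0.16 and 0.32 ± 0.18 (adjusted p = 0.725 and 0.698 in limma). Cdk4, a partner of D cyclins, measured 13.70, 13.65 and 13.46 in SHR and 13.57, 13.73 and 13.78 in WKY, a difference of -0.09 ± 0.14 that was 0.067 in the intensities before normalization between arrays. Cdk2 (0.07 ± 0.15) and Cdk6 (-0.02 ± 0.15) had overlapping groups. Cdc25b encodes the phosphatase that starts Cdk1 activation in late G2. Its signal was 7.77, 6.96 and 7.39 in SHR and 7.49, 6.68 and 7.0 in WKY, a range of 1.09 over the arrays with a strain difference of 0.32 ± 0.28. The order of its arrays, with SHR 1 highest and WKY 2 lowest, was that of Cdk1 at these ends.

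Among the cyclins, Ccnd2 separated the strains and Ccnd1 did not. Ccnd2 encodes cyclin D2, a G1 cyclin that growth signals induce. Its brighter probe gave 13.10, 12.99 and 13.00 in SHR and 12.66, 12.79 and 12.75 in WKY. All SHR values lay above all WKY values, a difference of 0.30 ± 0.12 or 1.23-fold (unadjusted p = 0.0435, adjusted p = 0.643 in limma). The dimmer probe, at 9.49, 9.92 and 9.66 against 9.21, 9.55 and 8.88, overlapped at SHR 1 and WKY 2 and differed by 0.48 ± 0.21. Ccnd1, the gene of cyclin D1, measured 12.94, 13.20 and 12.60 in SHR and 12.78, 13.33 and 13.42 in WKY. Its groups overlapped, and the difference was -0.26 ± 0.24 (adjusted p = 0.788 in limma). Ccnd3, of cyclin D3, gave 12.08, 11.85 and 11.89 against 11.96, 11.79 and 11.85, a difference of 0.07 ± 0.13. Its other probes gave 0.29 ± 0.18 and -0.25 ± 0.37. Ccne1, whose cyclin E1 acts with Cdk2 at the start of S phase, differed by 0.03 ± 0.18. The S and G2 cyclin gene Ccna2 and the mitotic cyclin gene Ccnb1 differed by 0.07 ± 0.26 and 0.08 ± 0.17. Ccna2, described here after its values were seen, ran from 11.70 to 12.02 in SHR but was 11.22, 12.17 and 11.90 in WKY, as for Mki67 with WKY 1 at the bottom and WKY 2 at the top.

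Of the 6 measured genes of the replication fork, 5 were lowest on WKY 1, all but Mcm2, while the array that was highest varied. Pcna encodes the sliding clamp that holds DNA polymerase on its template. Its SHR arrays gave 13.71, 13.67 and 13.85 and its WKY arrays 13.49, 13.50 and 13.60. The strains did not overlap. The difference was 0.22 ± 0.12, or 1.16-fold (unadjusted p = 0.127, adjusted p = 0.698 in limma). The Mcm genes encode subunits of the MCM2-7 helicase, which opens the DNA at origins. Mcm5 gave 10.15, 10.32 and 10.07 in SHR and 9.17, 10.26 and 9.68 in WKY, a difference of 0.48 ± 0.28. Its second probe gave 9.31, 9.46 and 9.15 against 8.61, 9.42 and 8.95. WKY 1 was the lowest array at both probes, WKY 2 lay within the SHR range, and the difference at the brighter probe was 0.21 without WKY 1. Mcm2 did not share this profile, with 9.87, 9.55 and 9.49 on the SHR arrays against 9.39, 9.19 and 9.52 (0.27 ± 0.16). Mcm4, Mcm6 and Mcm7 differed by -0.08 ± 0.18, -0.03 ± 0.22 and -0.07 ± 0.22, and each was lowest on WKY 1. The second probe of Mcm6 gave 0.22 ± 0.18. The subunits of ribonucleotide reductase, which makes deoxynucleotides, showed small differences, with Rrm1 at 0.05 ± 0.15 and Rrm2 at -0.09 ± 0.16. Rrm1 measured 12.67, 12.62 and 12.77 against 12.56, 12.88 and 12.48, and Rrm2 11.22, 11.20 and 11.05 against 11.02, 11.47 and 11.26. Both had their WKY values spread around those of SHR. A second, dimmer Rrm1 probe differed by 0.45 ± 0.18 (unadjusted p = 0.0485, adjusted p = 0.65 in limma).

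In the mitotic group, 11 of 12 genes were measured, 8 with a higher and 3 with a lower mean in SHR, and none was separated between the strains. Cdc20 encodes an activator of the anaphase-promoting complex. It measured 12.74, 12.35 and 12.63 in SHR and 12.38, 12.20 and 12.34 in WKY. SHR 2 lay just below WKY 1 (0.27 ± 0.15, adjusted p = 0.695 in limma). Aurka, the kinase of spindle poles, gave 11.34, 11.29 and 11.47 against 11.00, 11.31 and 11.21 (0.19 ± 0.14). Birc5, the survivin of the chromosomal passenger complex, gave 12.70, 12.94 and 12.65 against 12.33, 12.79 and 12.67 (0.16 ± 0.17). In all 3 genes the groups overlapped. The checkpoint kinase genes Bub1 (0.14 ± 0.16) and Bub1b (0.11 ± 0.14), the polo kinase gene Plk1 (-0.0036 ± 0.15) and Cenpf, of a kinetochore protein (0.06 ± 0.19), had overlapping groups too. So had the spindle motor genes Kif11 (-0.01 ± 0.17) and Kif20a (-0.02 ± 0.22) and the ubiquitin-conjugating enzyme gene Ube2c (0.07 ± 0.23).

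Aurkb, chosen after its values were seen, had the widest spread of the 35 genes. It encodes the kinase of the chromosomal passenger complex, the partner of survivin. Its signal was 14.43, 12.70 and 14.79 in SHR and 14.26, 12.86 and 13.26 in WKY, or 20778, 7471, 30957, 21084, 6644 and 8513 intensity units before normalization between arrays. SHR 1, SHR 3 and WKY 1 were high and the other three arrays low, across both strains. The strain difference was 0.51 ± 0.62, with an interval from -0.97 to 2.00, and the spread within strains exceeded that of 98.4% of the 33249 probes. Of the other subunits of the complex, Birc5 and Incenp were not highest on these 3 arrays. Cdca8 was, at 12.67, 12.11 and 12.74 on the SHR arrays and 12.35, 12.13 and 12.21 on the WKY arrays. At 6 of 35 members (17.1%), SHR 1, SHR 3 and WKY 1 were the 3 highest arrays. The 6 members were Aurkb, Ccnd3, Cdc20, Cdc25b, Cdk1 and Cdk6. The same held at 16 of 133 other pathway genes (12%, among them Ccna1, Cdca8 and Pttg1) and at 14.3% of all genes. These counts rest on rank only, as Cdk1 was 13.669 on WKY 1 and 13.667 on WKY 3. A dimmer Ccnd3 probe was lowest on WKY 1 and highest on SHR 2. Incenp, Cdca8, Pttg1 and the cyclin gene Ccna1 were named after their values were seen. Ccna1 measured 12.27, 10.81 and 12.51 against 12.32, 10.93 and 11.25. A list of 12 interferon response genes, added after the values were seen and with 10 measured, had mean deviations of -0.34, 0.42 and -0.61 on the SHR arrays and -1.30, 0.80 and 1.02 on the WKY arrays. The arrays with high Aurkb were those with low interferon response. Deviations of the microglia and macrophage list, with 15 of 16 markers measured, were between -0.10 and 0.12, and those of the oligodendrocyte list, with 9 of 10, were -0.75, 0.33, -0.90, 0.50, 0.56 and 0.27 in the same order. Some microglia markers were near the top of the scale, as Aif1 and C1qa (brighter than 99.93% and 99.96% of genes). Whether a limit of the scale held them still was not tested. Among dimmer ones, Itgam ran from 11.23 to 12.57 and Laptm5 from 12.51 to 13.66, but Lcp1 only from 12.66 to 13.01. In the ependyma and choroid plexus list, 3 of 7 measured markers (Folr1, Foxj1 and Tekt1) were highest on the arrays of high Aurkb. The count was 2 of 10 in each of the astrocyte, endothelial, fibroblast and neuron lists, and 1 of 15 for microglia and macrophages. Tekt1, of cilia, measured 13.67, 12.86 and 14.10 in SHR against 13.45, 12.59 and 12.93. Ttr and Otx2, of the ependyma and choroid plexus list, were instead highest on SHR 2 and lowest on WKY 1. Ttr measured 11.51, 12.49 and 11.76 in SHR against 8.12, 9.18 and 10.47. The ependyma and choroid plexus list as a whole deviated by 0.61, 0.17, 0.82, -0.56, -0.81 and -0.23. The part of these cells and genes in the Aurkb profile was not tested. Aurkb had 1 probe, so no second probe could check it.

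**Figure D3:**
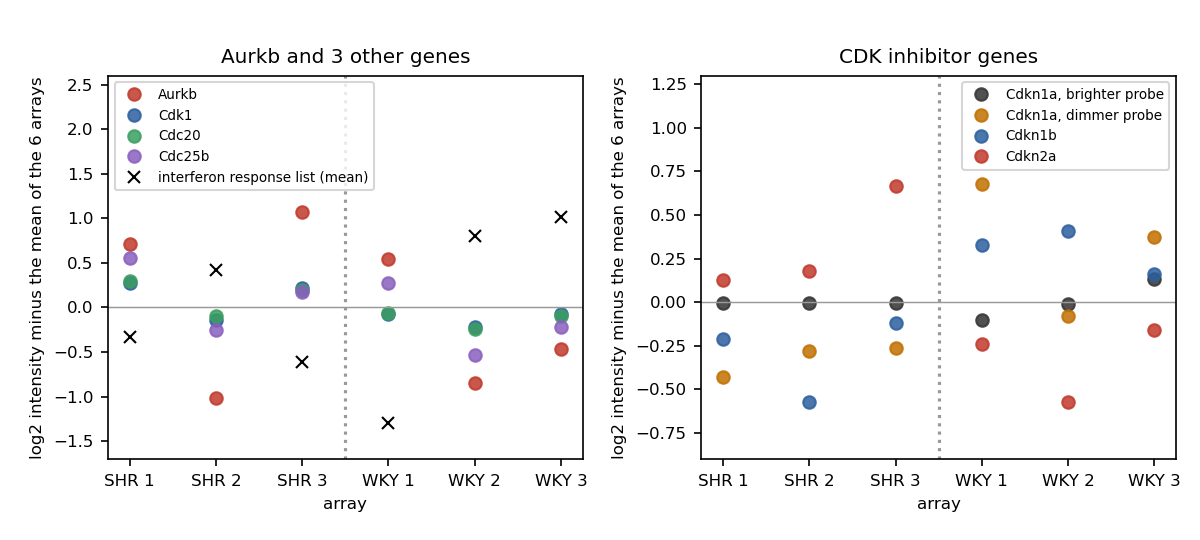
Log2 intensity minus the mean of the 6 arrays (vertical axes) for each array (horizontal axes), with 1 point per gene and array. On the left, Aurkb is high on SHR 1, SHR 3 and WKY 1, where the mean of the interferon response list (crosses) is low; on the right, Cdkn1b and the dimmer Cdkn1a probe lie lower and Cdkn2a higher in SHR, while the brighter Cdkn1a probe lies close to 0.

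Of the CDK inhibitor genes, Cdkn1b and Cdkn2a had the smallest unadjusted p-values of the 35 genes, without passing after adjustment. Cdkn1b encodes p27, which holds Cdk2 inactive in resting cells. Its signal was 7.75, 7.39 and 7.84 in SHR and 8.29, 8.37 and 8.12 in WKY. All SHR values lay below all WKY values, a difference of -0.60 ± 0.17, or 1.52-fold brighter in WKY (interval -1.0 to -0.20, unadjusted p = 0.0101, adjusted p = 0.538 in limma). Over the 16 alternative settings it lay between -0.69 and -0.46. Cdkn2a is the locus of p16, an inhibitor of Cdk4 and Cdk6, and of the p53 activator p19Arf. It gave 7.55, 7.60 and 8.09 in SHR and 7.19, 6.86 and 7.27 in WKY. Here the SHR values lay above all WKY values, by 0.65 ± 0.20 or 1.57-fold (interval 0.16 to 1.13, unadjusted p = 0.017, adjusted p = 0.572 in limma), and by 0.47 to 0.75 over the settings. Both probes were dim, brighter than 35.7% and 28.3% of probes, and each gene had 1 probe.

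Cdkn1a encodes p21, the inhibitor that p53 induces, and its 2 probes disagreed. The brighter gave 14.50, 14.49 and 14.49 in SHR and 14.40, 14.49 and 14.63 in WKY, a difference of -0.01 ± 0.12 that was 0.11 before normalization between arrays. The dimmer gave 9.94, 10.09 and 10.11 against 11.05, 10.29 and 10.75. At the dimmer probe all SHR values lay below all WKY values, by -0.65 ± 0.21 (unadjusted p = 0.0203, adjusted p = 0.575 in limma). The brighter probe stood above 98.9% of all probes and spanned 0.24 over the arrays, and the dimmer one spanned 1.11. Whether a limit of the scale held the brighter probe still was not tested. Cdkn2b, the gene of p15, lies near Cdkn2a on the same chromosome, with 1 other gene between them in the GRCr8 gene table. It measured 10.89, 10.70 and 10.58 in SHR and 10.45, 10.20 and 10.03 in WKY. Like Cdkn2a it was separated and higher in SHR, by 0.50 ± 0.16 (unadjusted p = 0.0206, adjusted p = 0.575 in limma), with 0.64 ± 0.24 at its second probe. A link between the differences of Cdkn2a and Cdkn2b was not tested.

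One WKY array stood low at many of the genes. WKY 1 was the lowest of the 6 arrays at 19 of 35 members (54.3%), against 14.1% of all genes and 14.8% of the 5076 genes within the middle range of the members' levels. By role it was lowest at 5 of 6 replication genes, 7 of 11 mitotic genes and 4 of 6 cyclins, but at 0 of 5 kinase and phosphatase genes. WKY 1 was the highest array at 1 member, Cdk6. WKY 2 and SHR 1 were each the highest at 10 members. Against the mean of WKY 2 and WKY 3, WKY 1 lay lower at 25 of 35 members, with a median of -0.18, and at 46.2% of all genes, with a median of 0.03. Mki67 was 1.81-fold, Ccna2 1.76-fold, Mcm5 1.74-fold, Mcm6 1.60-fold, Mcm7 and Ube2c 1.59-fold, Ccnd1 1.51-fold and Kif20a 1.5-fold lower on WKY 1 in that comparison, which was made after the values were seen. Aurkb and Cdc25b went the other way, with WKY 1 higher by 1.20 and 0.65 on the log2 scale. At the 11 other tested probes of the members, WKY 1 was lowest in 4. The count at the brightest probes was 19 with cyclic loess and with renewed quantile normalization, 16 with median centring and 14 before normalization between arrays, where the shares of all genes were 15.5%, 14.2%, 10.5% and 6.93%. WKY 1 also had the lowest interferon response of the 6 arrays, while its astrocyte, microglia and neuron lists deviated by 0.10, -0.0033 and -0.06. Its ependyma and choroid plexus list deviated by -0.56, its oligodendrocyte list by 0.50 and its endothelial and pericyte list by 0.07. The fibroblast and meningeal list, with 10 of 11 markers measured, deviated by 0.0056, 0.34 and 0.50 on the SHR arrays. On the WKY arrays it deviated by -0.17, -0.21 and -0.47. The oligodendrocyte precursor list, with 6 of 8 markers measured, stood at -0.18 on WKY 1 against 0.37 and 0.17 on WKY 2 and WKY 3. In it, Sox10 measured 11.18 against 12.59 and 12.22, Vcan 11.97 against 13.03 and 12.75, and Cspg4 11.16 against 11.69 and 11.83. Olig1 was slightly lower on WKY 1 (12.60 against 12.79 and 12.69). Olig2 lay between the other arrays (8.85 against 9.03 and 8.74), and Pdgfra was higher (7.69 against 7.60 and 7.30). On SHR 1 and SHR 3 that list stood at -0.20 and -0.35, where the median deviation of the 35 members was 0.09 and -0.0068, against -0.22 on WKY 1. The part of cell composition in the low values of WKY 1 was not tested. The possible limit of the scale named above for bright microglia markers applies here too.

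**Figure D4:**
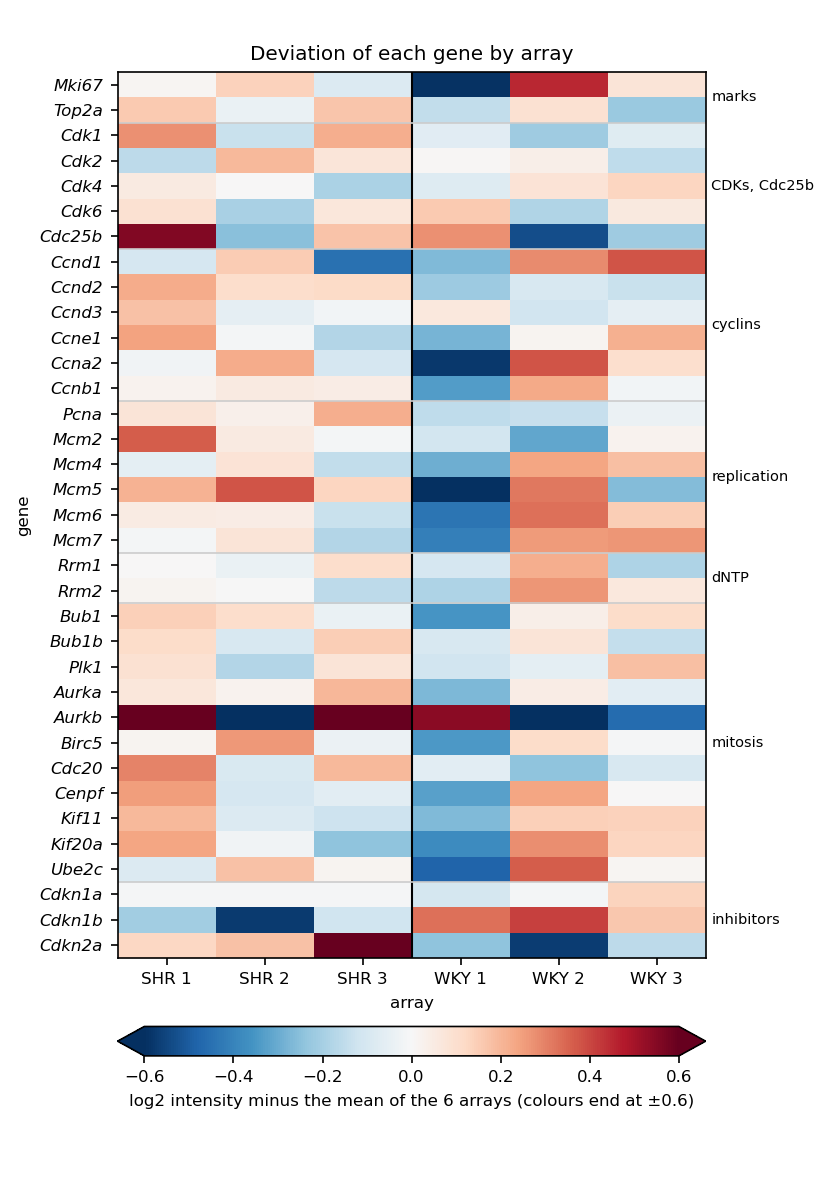
Each row is a gene and each column an array, and the colour is log2 intensity minus the mean of that gene over the 6 arrays, with colours ending at 0.6 in either direction. WKY 1 is the lowest array at 19 genes, among them Mki67, Ccna2, Mcm5, Mcm6 and Ube2c, and Aurkb reaches both ends of the scale.

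**Figure D5:**
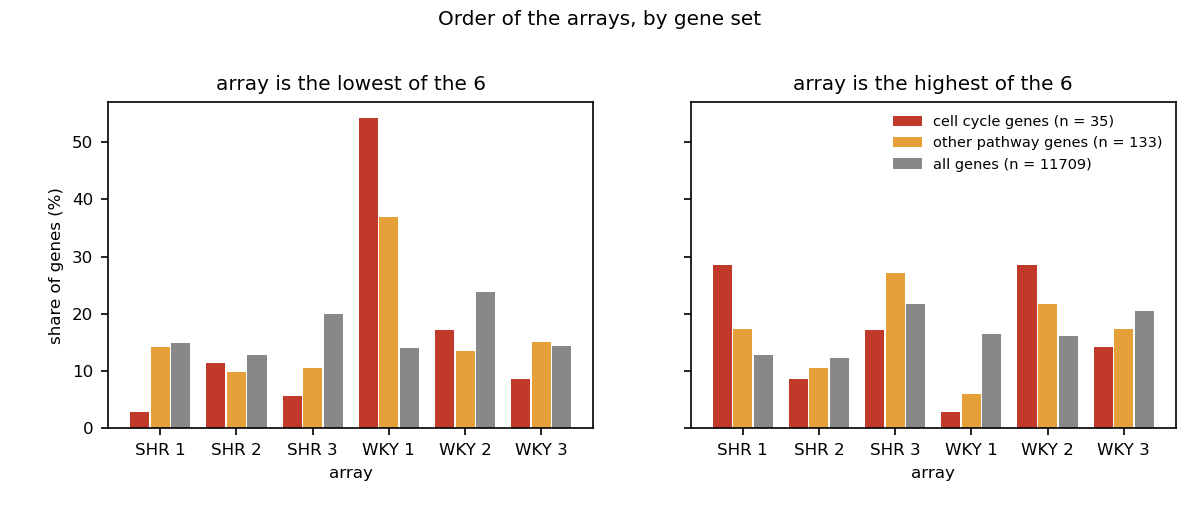
Share of genes in percent (vertical axes) at which each array (horizontal axes) was the lowest (left) or highest (right) of the 6, for the 35 cell cycle genes, 133 other pathway genes and all 11709 genes. WKY 1 is the lowest array at 54.3% of the cell cycle genes, 36.8% of the other pathway genes and 14.1% of all genes.

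Other genes of the pathway, in 9 lists of 184 names with 133 measured, leaned toward higher means in SHR. None passed over all probes. A higher mean in SHR was found at 89 and a lower one at 44, against 5833 and 5876 of all genes. The median was 0.07. Unadjusted p under 0.05 occurred at 7 higher (5.26%, against 3.38% of all genes) and 1 lower (0.75%, against 3.31%). Separated upward were 16 (12%, against 6.62%) and downward 2 (1.5%, against 7.3%). WKY 1 was the lowest array at 49 of the 133 (36.8%, against 14.1% of all genes). With median centring the count was 39 (29.3%, against 10.5%). Before normalization between arrays WKY 1 was lowest at 17 (12.8%, against 6.93%) and WKY 3 at 63 (47.4%, against 32.4%). The medians of the lists ran from -0.0062, for nucleotide supply, to 0.15, for CDK phosphatases, kinases and the CDK-activating complex.

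In the list of origin licensing and the replication fork, 17 of 26 measured genes had higher means and 2 (7.69%) an unadjusted p under 0.05. These were Dbf4, the regulatory subunit of the Cdc7 kinase that fires origins (0.52 ± 0.18), and Prim1, a primase subunit (0.50 ± 0.20). Both were separated and higher in SHR (adjusted p = 0.587 and 0.646 in limma). Of the cohesin and condensin list, 8 of 12 were higher and 2 (16.7%, against 3.38% of all genes) had such a p. Smc2, a condensin subunit, measured 10.69, 10.66 and 10.73 in SHR and 10.33, 10.36 and 10.29 in WKY. It differed by 0.37 ± 0.11, with 0.31 ± 0.23 at its other probe, while Stag2, of cohesin, differed by 0.46 ± 0.18. Smc2 had little spread within strains, and its adjusted p was 0.569 in limma.

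For ubiquitin ligases, 10 of 17 were higher, with an unadjusted p under 0.05 at 2 higher (11.8%) and 1 lower (5.88%). Anapc1, a scaffold of the anaphase-promoting complex, differed by -0.39 ± 0.13, but by 0.30 ± 0.14 and -0.86 ± 0.23 at its other probes. Fbxw7, the ligase subunit that marks cyclin E for destruction, differed by 0.43 ± 0.15. Skp2, whose ligase marks p27 for destruction, was the other gene higher in SHR and was named after its values were seen. It measured 8.56, 8.70 and 8.79 in SHR and 8.39, 8.37 and 8.37 in WKY (0.31 ± 0.12, adjusted p = 0.643 in limma), and its SHR values lay above all WKY values. Cks1b, a cofactor of that ligase also named after its values were seen, differed by 0.26 ± 0.14 and was separated too, with 0.32 ± 0.14 at its other probe. Cul1 and Skp1, ubiquitin ligase genes of the same list also named after their values were seen, were not higher in SHR. They differed by -0.23 ± 0.13 and -0.02 ± 0.14, and neither was separated. The ligase of Skp2 acts on the p27 protein, which the arrays do not measure. A link of Skp2 or Cks1b to the Cdkn1b signal was not tested.

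No gene of the other lists had an unadjusted p under 0.05, apart from Cdkn2b. The E2F, RB and DREAM regulators had 9 of 13 higher, led by E2f1, the factor of S phase entry (0.29 ± 0.14), and Tfdp2, an E2F partner (0.41 ± 0.21). Kinetochore and checkpoint genes had 10 of 13 higher, led by Cenpw (0.33 ± 0.15, and -0.20 ± 0.15 at its other probe) and Cenpn (0.81 ± 0.55), both of the centromere. Cenpn was 6.67 on WKY 1 and 7.98 to 8.96 elsewhere. Spindle motor and cytokinesis genes had 15 of 21 higher, led by the motor genes Kif23 (0.24 ± 0.14) and Kif20b (0.31 ± 0.21). The CDK phosphatase and kinase list had 8 of 10 higher, led by Wee1, the kinase that restrains Cdk1 (0.21 ± 0.12), and Cdk7, of the CDK-activating complex (0.33 ± 0.22). Nucleotide supply was even, with 4 of 8 higher, led by Nme2, a nucleoside diphosphate kinase gene (0.27 ± 0.11), and Dctd, the dCMP deaminase gene (-0.33 ± 0.15). Inhibitors, quiescence genes and p53 targets had 8 of 13 higher, led by Cdkn2b and by Gadd45b, a stress response gene (0.34 ± 0.16).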

How the data were processed

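RNA of 6 pools was hybridised to 6 arrays, 3 per strain. Per the labels, the CodeLink software gave spot intensities with background removed, spots weaker than negative controls plus 2 SD were dropped, and arrays were quantile normalized. No software version or genome build is named there. The authors deposited linear intensity in 2 forms: a quantile normalized series table, the main source, and per-sample tables whose arrays are not normalized between each other, used as the alternative. The log2 of each deposited value above 0 was used without an offset, and the rest, such as the code -9999, counted as missing. A probe needed 3 valid arrays in either strain and 2 in its counterpart (33249 probes; 600 fell short). Two-sided limma tests (version 3.58.1, lmFit and eBayes, in R 4.3.3) were adjusted by Benjamini-Hochberg over these probes and called at 0.05. Each gene is read at its brightest probe valid on all arrays; 16753 probes have 1 symbol and 165 several, which name no gene here. Entrez identifiers of 16724 matched the GRCr8 gene table, which updated 1 symbol. Promoters are RefSeq's (GRCr8).

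The members and lists were chosen with earlier results of these data known, so no test over a list was made. Genes named: 6 set members, up to 3 per role and 2 per pathway list by smallest p, and separated members; others are said to be named after their values were seen. The script was tested on simulated data. Alternatives covered the source and normalization, probe filter, dim probes, an offset of 50 units, the prior, the replicate block, a threshold of 0.10, the mean over probes and each array left out; the order of arrays under other scalings and at other probes, and the interferon list, were added after seeing the data. Figures were drawn with matplotlib 3.10.9.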

Additional observations from a re-analysis of the deposited data

How the results depend on the processing

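None of the 35 members passed an adjusted p of 0.05 in any of the settings tried, or one of 0.10. Over all probes limma called 0, with 2545 at an unadjusted p under 0.05. The count was 5 with probes valid on all arrays, 18 without the dimmest 25%, 17 with an offset, 28 with an intensity trend and robust prior, 13 at an adjusted p of 0.10 and 0 to 1 without single arrays. The median of the members, 0.07, was 0.24 before normalization between arrays and between -0.0014 (without WKY 1) and 0.17 (without WKY 2) when an array was left out. Of 19 members followed through 16 settings each, 13 kept their sign in all. The sign turned for Cdk4 (0.067), Rrm2 (0.076) and Cdkn1a (0.11) before normalization between arrays. Leaving out single arrays gave -0.24 to 0.28 for Mki67, -0.0013 to 0.12 for Ccnd3, -0.033 to 0.17 for Rrm1, -0.21 to 0.014 for Rrm2 and -0.068 to 0.051 for Cdkn1a. A replicate block gave 0 passing probes, 2798 probes below an unadjusted p of 0.05 in limma, and a members' median of 0.07. For numbers 1 to 3, the deviations of both strains' arrays correlated at -0.0017, 0.21 and -0.12. SHR 2 and WKY 2 matched each other best, but SHR 1 and SHR 3 matched WKY 3 and WKY 1 best. With 3 arrays a strain these deviations depend on one another, so they cannot decide whether equal numbers are pairs. The labels state no block, and the numbers are not taken as pairs. The causes were not tested.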
